A study of Homo sapiens with 18 samples.

Results

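ASAP1 silencing in Hs578T cells was described from 6 TempO-Seq libraries, 3 of cells transfected with siASAP1 and 3 of cells transfected with siCtrl. In TempO-Seq, 2 short detector oligos that lie side by side on an RNA are ligated, amplified and sequenced, so a row of the table reads 1 short stretch of 1 transcript. All rows whose mean normalized count over the 6 libraries was at least 10 were included, which gave 9500 of 21111 rows and 8985 gene symbols. The rows just inside and just outside that limit had means of 10.0 and 9.99. The study used 3 TNBC (triple-negative breast cancer) cell lines, Hs578T, BT549 and SUM149PT, with 6 libraries each. siASAP1 was a SMARTpool of siRNAs against ASAP1, and siCtrl was, by the study's methods, a pool of siRNAs against kinases. Both groups were the same established line, received 50 nM siRNA in multi-well plates and were lysed 72 h later. The study describes the triplicates as biological, and the labels do not say what separates them. A control made of kinase siRNAs and a pooled, transient knockdown limit the groups as a model of ASAP1 loss. The study's methods state that the control pool does not significantly change individual kinase genes. In these libraries no single siASAP1 sequence was measured on its own, while the study tested the single siRNAs on proliferation.

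ASAP1 is an Arf GTPase-activating protein. It promotes hydrolysis of GTP on Arf proteins, the small GTPases that recruit vesicle coats and shape the cell cortex, and it binds Src family kinases and focal adhesion kinase at focal adhesions and invadopodia. Hs578T is a mesenchymal-like breast carcinoma line that makes abundant extracellular matrix and lacks the epithelial adhesion program.

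Depth was 5.72 to 12.5 M reads in the siASAP1 libraries and 7.83 to 9.10 M in the siCtrl libraries. The siCtrl library of replicate 3 stood apart from the rest. It had reads in 11014 rows, the fewest of the 6. Its log2 values correlated with the mean of the other 2 siCtrl libraries at r = 0.868, where the other 5 libraries had values between 0.916 and 0.949. It also held the highest score on the first principal component. That component took 45.8% of the variance and did not separate the groups (exact permutation p = 0.8), while the second took 23.6% and did (p = 0.1, the smallest that 3 against 3 allows). For part of the genes and lists, results are therefore also given without it, a choice made after the data were seen. Where no such value is given, a result may still rest on this library. In the plot of the principal components both libraries numbered 3 lie at the right, with the fewest rows read.

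**Figure D1:**
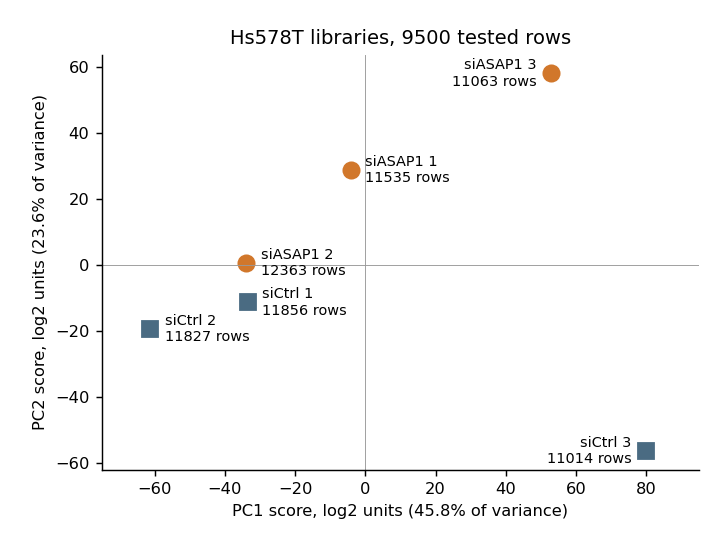
Scores of the 6 Hs578T libraries on the first (x axis) and second (y axis) principal components (log2 values, 9500 rows), in log2 units, circles for siASAP1 and squares for siCtrl, each with its number of rows that had a read. The siCtrl library of replicate 3 lies at 79.9 on the first axis, and every siASAP1 library lies above every siCtrl library on the second.

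The mesenchymal-like label held for most of its markers. Vimentin (VIM) gave 94439, 127121 and 126845 after siASAP1 and 108625, 126601 and 218740.0 after siCtrl in normalized counts, and COL1A1, FN1 and CDH2 gave over 1000 in every library, but ZEB1, another of the 6 markers, had reads in only 1 library. Of 10 epithelial markers, CDH1, CLDN3 and KRT19 were at 0 in all 6 libraries, and the summed level of the list was 154 to 408 after siASAP1 and 197 to 489 after siCtrl. Of the immune markers PTPRC, CD3E, CD14 and CD68, the first 3 were at 0, and the lysosomal protein CD68 gave 251 to 321 after siASAP1 and 80.8 to 133 after siCtrl. Of 4 endothelial markers only PECAM1 was read, at 24.3 to 46.9 after siASAP1 and 13.9 to 24.6 after siCtrl.

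The targeted gene was measured by a single row. ASAP1 read 782, 825 and 1261 after siASAP1 and 1641, 1414 and 2697 after siCtrl in normalized counts. The 3 siASAP1 libraries were all below the 3 siCtrl libraries, and the highest value of each group came from replicate 3. The mean after siASAP1 was 956 ± 265 (SD, n = 3), 49.9% of the siCtrl mean of 1918 ± 685 (SD, n = 3). The difference was Log2 FC -0.98, SE 0.32, unadjusted p = 0.0126, with an adjusted p of 0.909 by limma and an exact permutation p of 0.1. Without the siCtrl library of replicate 3 the Log2 FC was -0.71 (unadjusted p = 0.0218). ASAP1 thus fell just short of the study's fold limit for a differentially expressed gene (DEG), an absolute Log2 FC over 1 together with an unadjusted p under 0.05. Among the other driver genes of the study's screen, MYC (Log2 FC -0.13, SE 0.29, unadjusted p = 0.661), EGFR (Log2 FC -0.17, SE 0.49, unadjusted p = 0.739), IRF2BP2 (Log2 FC 0.12, SE 0.29, unadjusted p = 0.695), CCT5 (Log2 FC -0.21, SE 0.28, unadjusted p = 0.47) and DRD1 (Log2 FC 0.34, SE 0.53, unadjusted p = 0.527) had overlapping groups.

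By the DEG limits 137 rows fell after siASAP1, 1.44% of the 9500, and 127 rose, 1.34%, so 2.78% were called in either direction. These limits do not adjust for the number of rows. After Benjamini-Hochberg adjustment, limma called 0 rows, with a smallest adjusted p of 0.525, while 502 rows had an unadjusted p under 0.05, where 475 would be expected if no row differed, and 450 had one with voom weights, which also gave 0 adjusted calls. Every DEG below thus met a fold and an unadjusted limit, with an adjusted p between 0.525 and 0.923 in the main limma fit. With the replicate numbers as a block, limma gave 26 adjusted calls that fell and 11 that rose. Voom weights with the block gave 110 and 55. The labels do not say whether equal numbers pair the libraries, and the block was kept as an alternative. In 549 rows all siASAP1 libraries were below all siCtrl libraries (5.78%) and in 599 all were above (6.31%), and this held for 109 of the 137 DEGs that fell and 116 of the 127 that rose. Without the siCtrl library of replicate 3, 320 rows fell (3.37% of 9505) and 314 rose (3.3%), still with 0 adjusted calls (smallest 0.178, 1304 at an unadjusted p under 0.05), and 81 of the 137 and 98 of the 127 were among them. When each library was left out in turn, 28 of the DEGs that fell and 28 of those that rose met the limits all 6 times. Scaling by library totals in place of the size factors moved the median Log2 FC of all rows from 0.01 to 0.12, and the share of DEGs that rose from 48.1% to 69.5% (87 down and 198 up). DEGs were more frequent among rows of low level, at 3.51% of rows with a mean of 10 to 50 and 1.38% of rows of 1000 or more, where the median SE was 0.778 and 0.278.

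**Figure D2:**
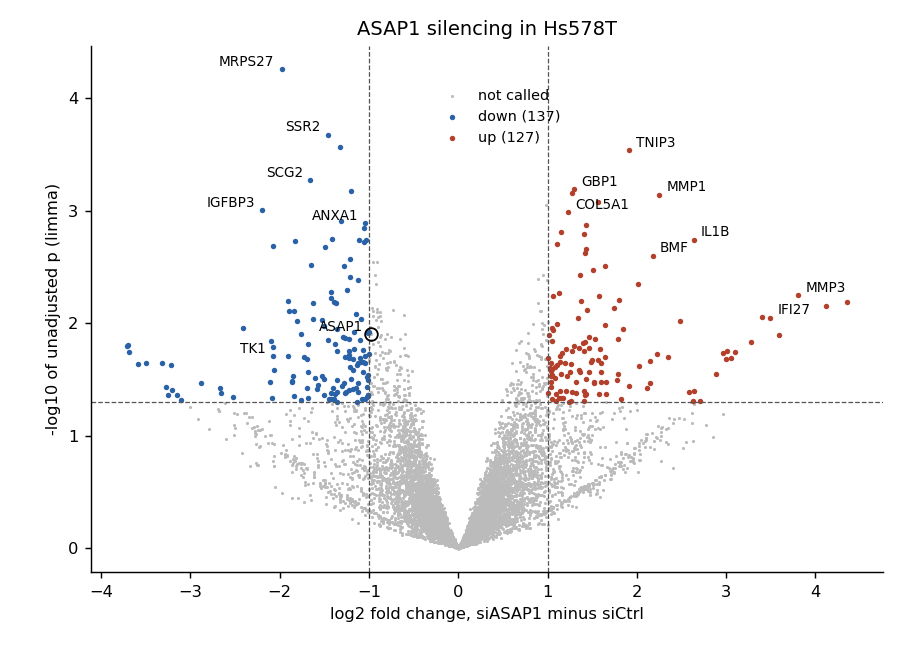
Log2 FC of siASAP1 minus siCtrl (x axis) against -log10 of the unadjusted limma p (y axis) for the 9500 rows, 1 point per row, with dashed lines at the DEG limits. Blue points are the 137 DEGs that fell, red points the 127 that rose, and the ringed ASAP1 point lies at -0.98, just inside the fold limit.

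Where a gene was read by several rows, the other rows mostly moved with the called one. Among 14 DEG rows that fell and have another row of the same gene in the test, 16 of the 18 other rows had a negative Log2 FC, and among 12 that rose, 16 of 16 other rows had a positive one. Only 2 of the other rows met the limits in each direction, those of NRG1 and of SOD2. Both genes had 2 called rows, so some NRG1 rows were counted more than once and the SOD2 rows for each other. APOBEC3F and EPHB6 had the 2 rows of opposite sign.

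Of the DEGs that fell, those with the smallest p had roles of several kinds. MRPS27, a protein of the mitochondrial small ribosomal subunit, read 97.5, 106 and 88.5 after siASAP1 and 365, 391 and 401 after siCtrl. The libraries of each group lay close together and far from those of the other (Log2 FC -1.98, SE 0.29, unadjusted p = 5.53e-05). SSR2, a subunit of the translocon-associated complex of the endoplasmic reticulum, read 389.8, 464 and 353 after siASAP1 and 1076, 1184 and 1055 after siCtrl. It fell with the same narrow spread (Log2 FC -1.46, SE 0.25, unadjusted p = 0.000212). SLC38A1, a glutamine and neutral amino acid transporter, read 1371, 1628 and 1116 after siASAP1 and 2953, 3475 and 2928 after siCtrl (Log2 FC -1.20, SE 0.24, unadjusted p = 0.000662). BEX3, a small brain-expressed X-linked family protein, read 2687, 3413 and 2443 after siASAP1 and 6658, 6223 and 8427 after siCtrl and fell without overlap (Log2 FC -1.32, SE 0.24, unadjusted p = 0.000272). SCG2, a granin of secretory granules, read 69.1, 79.8 and 67.2 after siASAP1 and 189.9, 224 and 279.8 after siCtrl (Log2 FC -1.66, SE 0.33, unadjusted p = 0.000537). CETN2, a centrin of the centriole, read 414, 726 and 489 after siASAP1 and 1206, 1223 and 1517 after siCtrl (Log2 FC -1.31, SE 0.29, unadjusted p = 0.00122). All 6 genes met the limits each time a library was left out, so none of these calls rested on the siCtrl library of replicate 3.

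ANXA1, a phospholipid-binding annexin known for its part in resolving inflammation, read 24394, 35999.5 and 26315 after siASAP1 and 49164, 56564 and 72055 after siCtrl. The siCtrl library of replicate 3 had the highest value, and without it the Log2 FC went from -1.04 to -0.89, inside the fold limit. AXL, the receptor tyrosine kinase for GAS6, read 1125, 1525 and 1234 after siASAP1 and 2414, 2448 and 5107 after siCtrl. Its groups did not overlap (Log2 FC -1.28, SE 0.33, unadjusted p = 0.00308), but the siCtrl library of replicate 3 was far above the other siCtrl libraries, and without it the Log2 FC was -0.92. ANPEP, the cell surface aminopeptidase N, read 758, 809 and 861 after siASAP1 and 1399, 1701 and 2214 after siCtrl (Log2 FC -1.11, SE 0.26, unadjusted p = 0.00182, and -0.93 without that library). PNKD read 1066, 1408 and 1151 after siASAP1 and 2634, 2180.1 and 2729 after siCtrl (Log2 FC -1.06, SE 0.24, unadjusted p = 0.00142). UBL7, a ubiquitin-like protein, read 86.1, 112 and 73.6 after siASAP1 and 197, 273 and 257 after siCtrl (Log2 FC -1.42, SE 0.33, unadjusted p = 0.00179). TBC1D5, a Rab GTPase-activating protein of the endosomal retromer pathway, read 70.3, 113 and 118 after siASAP1 and 217, 319.8 and 614 after siCtrl (Log2 FC -1.82, SE 0.43, unadjusted p = 0.00186). In each of these 6 genes all siASAP1 libraries were below all siCtrl libraries. ACAT1, the mitochondrial acetyl-CoA acetyltransferase of ketone body and isoleucine breakdown, fell as well, at 1575, 1763 and 1137 after siASAP1 and 3269, 3183 and 2758 after siCtrl (Log2 FC -1.06, SE 0.25, unadjusted p = 0.00191).

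IGFBP3, the main carrier of insulin-like growth factors, read 46.5, 160.2 and 75.7 after siASAP1 and 267, 493 and 424 after siCtrl. All 3 siASAP1 libraries were below the siCtrl libraries (Log2 FC -2.19, SE 0.47, unadjusted p = 0.00099), and the Log2 FC was -2.12 without the siCtrl library of replicate 3. NRG1, a neuregulin ligand of the ERBB receptors, was tested by 4 rows that read different stretches of its transcripts. The row NRG1_27601 read 107, 75.7 and 67.2 after siASAP1 and 228, 221 and 125 after siCtrl and the row NRG1_27602 read 32.9, 19.7 and 7.46 after siASAP1 and 72.6, 44.1 and 59.1 after siCtrl. Both fell (Log2 FC -1.17, SE 0.38, unadjusted p = 0.0119, and Log2 FC -1.69, SE 0.61, unadjusted p = 0.0208), while the row NRG1_22037 had a Log2 FC of -0.00 with overlapping groups (77.1, 64.2 and 75.7 against 73.4, 81.6 and 63.1) and NRG1_27598 one of -1.45 (unadjusted p = 0.144). The transcript that each row reads was not determined here. EGF, a ligand of EGFR, went the other way, at 178, 229 and 187 after siASAP1 and 71.7, 93.8 and 56.2 after siCtrl, with all siASAP1 libraries higher (Log2 FC 1.43, SE 0.34, unadjusted p = 0.00217). The list of the EGFR family and its ligands thus held 2 rows that fell and 1 that rose among 9 tested, 33.3% against 2.78% of all rows. The gene lists here and below were chosen with earlier results of these data known. Such shares describe the lists and do not test them.

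Lists of proliferation genes held 1 or 2 DEGs each, where 2.78% of all rows were called. MCM6, a subunit of the replicative helicase, read 257, 417 and 219 after siASAP1 and 666, 478 and 599 after siCtrl (Log2 FC -1.005, SE 0.33, unadjusted p = 0.0121) and was at -0.98 without the siCtrl library of replicate 3. TK1, the cytosolic thymidine kinase of S phase, read 9.07, 4.05 and 5.33 after siASAP1 and 34.6, 27.7 and 22.7 after siCtrl, with few reads in every siASAP1 library (Log2 FC -2.08, SE 0.74, unadjusted p = 0.0198). These were the 2 DEGs among 42 rows of DNA replication genes (4.76%, with a median Log2 FC of 0.03, 19 negative and 23 positive). MAD2L1, a spindle checkpoint protein, read 23.8, 50.3 and 12.8 after siASAP1 and 125, 65.3 and 39.4 after siCtrl with overlapping groups (Log2 FC -1.42, SE 0.62, unadjusted p = 0.0473) and was the only DEG among 36 mitosis rows (2.78%). Of these 36 rows 28 were negative, with a median Log2 FC of -0.29. Groups were lower without overlap in 4 (5.78% of all rows) and higher in 0 (6.31% of all rows). Without the siCtrl library of replicate 3 the mitosis list had a median of -0.49 and 4 DEGs that fell (3.37% of all rows fell). The mitosis list did not include RACGAP1, CENPH and FAM64A, which also fell with all libraries used (Log2 FC -2.07, -1.36 and -1.85). BRCA2 read 10.2, 19.1 and 11.7 after siASAP1 and 35.4, 33.5 and 37.4 after siCtrl (Log2 FC -1.36, SE 0.57, unadjusted p = 0.0405), the only DEG of the 37 listed rows of DNA repair genes (2.7%). FANCC and SMC5 were not in that list. SMC5 fell (Log2 FC -3.25), and so did 1 row of FANCC (Log2 FC -1.06, with the other row at -0.10). RBL2, the pocket protein p130, read 80.5, 208 and 55.4 after siASAP1 and 268, 369 and 284 after siCtrl (Log2 FC -1.63, SE 0.47, unadjusted p = 0.00663). PLK2, a p53-induced polo-like kinase, read 198, 310.5 and 182 after siASAP1 and 533, 720.5 and 391 after siCtrl (Log2 FC -1.24, SE 0.34, unadjusted p = 0.00506). Both fell without overlap in the libraries, and the other rows of G1 cyclins, CDKs and their inhibitors (22 tested) and of p53 targets (28 tested) held no DEG. These lists had 2 and 4 DEGs that fell without the siCtrl library of replicate 3, where 3.37% of all rows fell.

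In the protein synthesis lists many members were slightly lower and few met the limits. Of 73 rows of cytosolic ribosomal proteins 58 had a negative Log2 FC, with a median of -0.27 (-0.42 without the siCtrl library of replicate 3), 12 had non-overlapping lower groups (5.78% of all rows had) and 0 had higher ones (6.31% of all rows). Only RPS26 fell (64.6, 27.8 and 39.5 after siASAP1 and 116, 67.7 and 115 after siCtrl, Log2 FC -1.21), 1.37% of the list against 1.44% of all rows. Without the siCtrl library of replicate 3 it was 3 rows, where 3.37% of all rows fell. Of 66 rows of mitochondrial ribosomal proteins 49 were negative, with a median of -0.21, and MRPS27 and MRPS14 fell (3.03%). MRPS14 read 10.2, 30.6 and 37.3 after siASAP1 and 98.7, 68.5 and 102 after siCtrl (Log2 FC -1.91, SE 0.55, unadjusted p = 0.00636). With scaling by library totals these medians were -0.15 and -0.09, with the same sign. The respiratory chain list had 36 negative rows of 48, a median of -0.23 and 0 DEGs. Its groups were lower without overlap in 7 rows (5.78% of all rows) and higher in 0 (6.31% of all rows). ATP5B gave 25312, 25922 and 27682 after siASAP1 and 35846, 34424 and 50794 after siCtrl (Log2 FC -0.60, SE 0.21, unadjusted p = 0.0193). Among aminoacyl-tRNA synthetases 1 of 30 rows fell (3.33% against 1.44% of all rows), EARS2, the mitochondrial glutamyl-tRNA synthetase (7.93, 6.94 and 6.4 after siASAP1 and 27, 22.8 and 60.1 after siCtrl, Log2 FC -2.09). Without the siCtrl library of replicate 3, 2 synthetase rows fell, where 3.37% of all rows did.

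Among nucleotide synthesis genes 9 of 23 rows had siASAP1 libraries entirely below siCtrl (5.78% of all rows), 0 entirely above (6.31% of all rows), and the median Log2 FC was -0.30. NME1, a nucleoside diphosphate kinase, read 3489, 4711 and 4483 after siASAP1 and 8093, 7192 and 10801 after siCtrl and was the DEG of this list (Log2 FC -1.03, SE 0.24, unadjusted p = 0.00182, and -0.86 without the siCtrl library of replicate 3). IMPDH1, which makes the precursor of guanine nucleotides, read 290.1, 419 and 365 after siASAP1 and 629.5, 556 and 1002 after siCtrl, just short of the fold limit (Log2 FC -0.99, SE 0.32, unadjusted p = 0.0108). RAN, the GTPase of nuclear transport, read 5200.0, 5826 and 4327 after siASAP1 and 8393, 7680.2 and 9259 after siCtrl (Log2 FC -0.73, SE 0.22, unadjusted p = 0.00762). The base excision repair endonuclease APEX1 read 279.9, 252 and 319 after siASAP1 and 469, 397 and 485 after siCtrl (Log2 FC -0.67, SE 0.27, unadjusted p = 0.0361). In all 3 the groups did not overlap and the fold limit was not met.

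Sterol genes were lower in most rows. SREBF2, the transcription factor that drives cholesterol synthesis, read 30.6, 17.3 and 29.9 after siASAP1 and 81, 52.2 and 96.5 after siCtrl (Log2 FC -1.52, SE 0.47, unadjusted p = 0.00938) and was the only DEG of 21 rows, of which 17 were negative, with a median Log2 FC of -0.48. Without the siCtrl library of replicate 3 the list had 7 DEGs that fell and a median of -0.84, where 3.37% of all rows fell. Amino acid stress genes under ATF4 split. PSAT1, of serine synthesis, read 38.5, 91.4 and 6.4 after siASAP1 and 86.9, 138 and 100.5 after siCtrl (Log2 FC -1.84, SE 0.80, unadjusted p = 0.0443). PCK2, the mitochondrial PEP carboxykinase, read 48.7, 80.4 and 0 after siASAP1 and 84.4, 204 and 147 after siCtrl (Log2 FC -3.11, SE 1.38, unadjusted p = 0.0487). In both, the siASAP1 library of replicate 3 had the lowest value, and PCK2 no read there. SLC7A11, the cystine transporter, rose instead, at 322, 126 and 218 after siASAP1 and 93.7, 119 and 54.2 after siCtrl (Log2 FC 1.28, SE 0.45, unadjusted p = 0.0178, and 0.96 without the siCtrl library of replicate 3), so that 2 of 31 rows fell and 1 rose (9.68% against 2.78% of all rows). Without that library 5 of the ATF4 rows fell and 3 rose, where 6.67% of all rows were called. The median of the list was -0.06, and it was 0.05 with library totals and 0.01 without that library. Unfolded protein response and chaperone genes (19 rows), heat shock genes (26 rows), proteasome subunits (36 rows) and glycolysis and hypoxia genes (31 rows) held 0 DEGs by limma, with 0 adjusted calls, at medians between -0.03 and 0.13. The heat shock list did not include HSPB8, a DEG described below. Once the siCtrl library of replicate 3 was left out, 6.67% of all rows were called. The proteasome list then had 3 DEGs that fell and 1 that rose. The chaperone list of the unfolded protein response had 1 that fell, and the glycolysis and hypoxia list 1 in each direction.

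**Figure D3:**
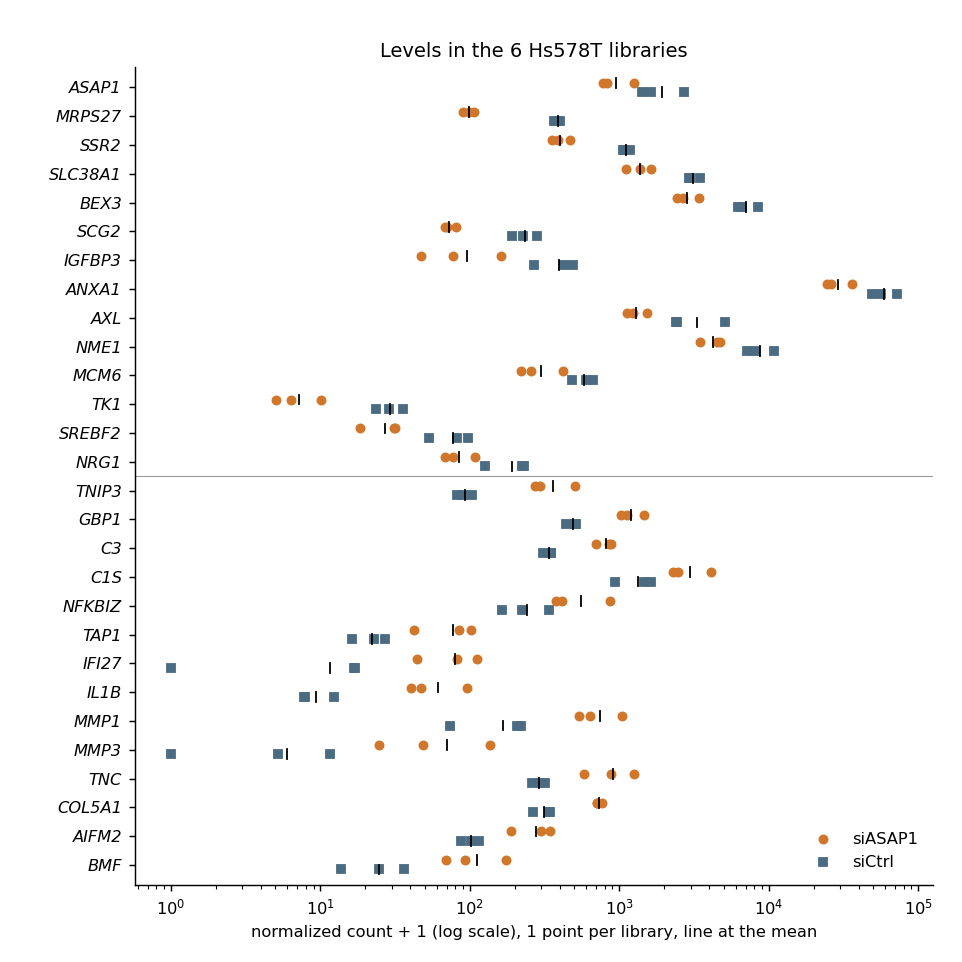
Normalized count + 1 on a log axis (x) for 28 named genes (y) in the 6 Hs578T libraries, orange circles for siASAP1 and blue squares for siCtrl, with a black line at each group's mean; NRG1 is the row NRG1_27601. Above the grey line lie ASAP1 and genes whose siASAP1 libraries were lower, below it genes whose siASAP1 libraries were higher, and in no gene shown do the groups overlap.

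Among the DEGs that rose, TNIP3 had the smallest p. This inhibitor of NF-kB activation, which binds A20, read 296, 272 and 502 after siASAP1 and 81, 103 and 89.7 after siCtrl. All 3 siASAP1 libraries were far above the siCtrl libraries (Log2 FC 1.91, SE 0.34, unadjusted p = 0.000289). NFKBIZ, a nuclear IkB protein induced by NF-kB, read 376, 415 and 868 after siASAP1 and 162, 337 and 222 after siCtrl. Its lowest siASAP1 library was close above the highest siCtrl library (Log2 FC 1.16, SE 0.41, unadjusted p = 0.0184). SOD2, the mitochondrial superoxide dismutase and an NF-kB target, was read by 2 rows, both of which rose. The row SOD2_22842 read 72.5, 53.2 and 94.9 after siASAP1 and 39.7, 22 and 8.87 after siCtrl (Log2 FC 1.79, SE 0.60, unadjusted p = 0.0137). The row SOD2_6667 read 46.5, 90.8 and 113 after siASAP1 and 43.9, 26.1 and 31.5 after siCtrl (Log2 FC 1.22, SE 0.48, unadjusted p = 0.0297). TNFAIP2 also rose, at 40.8, 78.1 and 68.2 after siASAP1 and 32.1, 35.1 and 18.7 after siCtrl (Log2 FC 1.09, SE 0.49, unadjusted p = 0.0496), and had a Log2 FC of 0.82 without the siCtrl library of replicate 3. The list of NF-kB and TNF signaling thus had 4 DEGs among 29 rows (13.8% against 2.78% of all rows), 0 that fell, and 12 rows with non-overlapping higher groups against 6.31% of all rows. TRAF1, an adaptor of TNF receptors in the same list, had overlapping groups and a Log2 FC of 0.00.

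Interleukin 1 rose with them. IL1B read 46.5, 39.3 and 94.9 after siASAP1 and 6.75, 11.4 and 6.9 after siCtrl. All siASAP1 libraries were above all siCtrl libraries, from a low level (Log2 FC 2.64, SE 0.62, unadjusted p = 0.00181). IL1A read 145, 164 and 219.7 after siASAP1 and 26.2, 206 and 16.7 after siCtrl, so the siCtrl library of replicate 2 was among the siASAP1 values (Log2 FC 1.91, SE 0.79, unadjusted p = 0.0363), and the Log2 FC was 1.22 (unadjusted p = 0.0898) without the siCtrl library of replicate 3. They were the 2 DEGs of 16 rows of interleukins and colony stimulating factors (12.5% against 2.78% of all rows), whose median Log2 FC was 0.47, and 0.03 without that library. Of 5 chemokine rows all were positive, with a median Log2 FC of 0.87, and 0 met the limits. CXCL8, the neutrophil chemoattractant interleukin 8, read 7896, 5258 and 25238 after siASAP1 and 5297, 10129 and 4769 after siCtrl. Its groups overlapped, and the siASAP1 library of replicate 3 was far above the rest (Log2 FC 0.68, SE 0.53, unadjusted p = 0.228, and 0.02 to 1.15 when 1 library was left out). CXCL1 was high in the same 2 libraries, siASAP1 replicate 3 and siCtrl replicate 2, at 376, 582 and 1561 after siASAP1 and 158, 818 and 145 after siCtrl (Log2 FC 1.39, SE 0.70, unadjusted p = 0.076), and so was CXCL2, at 580.2, 627 and 1789 after siASAP1 and 253, 1002 and 416 after siCtrl (Log2 FC 0.87, SE 0.56, unadjusted p = 0.15).

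Interferon-stimulated genes rose in 3 of 29 rows (10.3% against 1.34% of all rows), and 22 of the 29 were positive, with a median Log2 FC of 0.44. It was 5 rows without the siCtrl library of replicate 3, where 3.3% of all rows rose. TAP1, the peptide transporter of antigen presentation, read 83.9, 41.6 and 101 after siASAP1 and 15.2, 26.1 and 21.7 after siCtrl (Log2 FC 1.74, SE 0.51, unadjusted p = 0.00736). IFI27 read 81.6, 43.4 and 109.8 after siASAP1 and 16, 0 and 15.8 after siCtrl, with no read in 1 siCtrl library (Log2 FC 3.49, SE 1.07, unadjusted p = 0.00896), and the restriction factor TRIM22 read 35.1, 73.4 and 13.9 after siASAP1 and 4.22, 7.34 and 0 after siCtrl, also with 1 siCtrl library at 0 (Log2 FC 3.28, SE 1.11, unadjusted p = 0.0148). In all 3 the siASAP1 libraries were above the siCtrl libraries. GBP1, an interferon-induced GTPase, read 1117, 1027 and 1468 after siASAP1 and 506, 441 and 510.3 after siCtrl and rose with little spread (Log2 FC 1.29, SE 0.26, unadjusted p = 0.000644).

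RefSeq promoters, the 250 bases before the annotated start in the GRCh38.p14 assembly, were found for 7447 of the 8985 symbols (82.9%). They are shown for 5 of the genes above, which rose and whose window holds the letters of an NF-kB site, of an interferon response element (ISRE) or of a TATA box (TATAAA), each such match in capitals; they were chosen after the matches were seen. TNIP3 lies on the minus strand with its window at chr4:121227484-121227733, NFKBIZ on the plus strand at chr3:101827740-101827989, TAP1 on the minus strand at chr6:32853705-32853954, GBP1 on the minus strand at chr1:89065209-89065458 and IFI27 on the plus strand at chr14:94110486-94110735. Each is written 5′ to 3′ on the strand of its gene.
TNIP3: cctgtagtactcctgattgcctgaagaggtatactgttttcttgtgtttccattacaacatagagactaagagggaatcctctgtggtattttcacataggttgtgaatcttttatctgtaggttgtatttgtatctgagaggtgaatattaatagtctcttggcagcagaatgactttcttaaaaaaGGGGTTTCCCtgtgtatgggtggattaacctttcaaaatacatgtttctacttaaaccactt
NFKBIZ: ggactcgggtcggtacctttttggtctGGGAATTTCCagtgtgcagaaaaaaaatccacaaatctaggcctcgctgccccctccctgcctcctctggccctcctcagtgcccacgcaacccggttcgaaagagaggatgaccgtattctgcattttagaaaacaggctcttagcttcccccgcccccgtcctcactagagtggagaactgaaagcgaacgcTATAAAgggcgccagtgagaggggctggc
TAP1: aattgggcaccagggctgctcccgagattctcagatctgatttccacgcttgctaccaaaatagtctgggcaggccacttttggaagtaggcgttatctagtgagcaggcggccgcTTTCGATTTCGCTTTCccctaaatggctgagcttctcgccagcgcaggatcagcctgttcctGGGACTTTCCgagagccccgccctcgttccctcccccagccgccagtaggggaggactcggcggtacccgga
GBP1: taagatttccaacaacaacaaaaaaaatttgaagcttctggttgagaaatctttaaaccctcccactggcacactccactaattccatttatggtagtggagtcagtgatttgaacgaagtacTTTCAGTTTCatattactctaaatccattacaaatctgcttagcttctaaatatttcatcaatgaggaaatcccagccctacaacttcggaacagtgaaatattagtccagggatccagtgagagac
IFI27: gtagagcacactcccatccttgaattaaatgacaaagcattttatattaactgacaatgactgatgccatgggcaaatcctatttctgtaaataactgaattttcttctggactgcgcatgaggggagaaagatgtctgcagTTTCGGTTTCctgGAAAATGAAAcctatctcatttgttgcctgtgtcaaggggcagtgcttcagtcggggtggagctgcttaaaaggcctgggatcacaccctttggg
TNIP3 holds an NF-kB match, NFKBIZ an NF-kB and a TATA match, TAP1 an NF-kB and 2 overlapping ISRE matches, GBP1 an ISRE match and IFI27 2 ISRE matches. The windows of SOD2, TNFAIP2, IL1A and IL1B, which also rose, held no NF-kB or ISRE match. Letters of these and other motifs were also counted in the windows of all genes. With both strands searched, NF-kB letters were in 13.6% of the windows of genes that rose, 13.9% of those that fell and 11.5% of all 7447, and ISRE letters in 4.55%, 2.61% and 2.56%. AP-1 letters (TGANTCA) were in 6.82% of 88 windows of genes that rose, 4.35% of 115 that fell and 3.77% of all, and cAMP response element letters (TGACGTCA) in 4.55%, 0.87% and 3.14%. E2F letters (TTTCGCGC or TTTGGCGC) were in 1.14%, 4.35% and 1.91%, and TATAAA on the gene's strand in 7.95%, 5.22% and 3.57%. A match is only a run of letters and does not show that a factor bound there.

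Complement genes had 3 DEGs among 13 rows, all of which rose (23.1% against 1.34% of all rows). The list was chosen with earlier results of these data known, and the study named C3 from these same libraries. This share is thus not a test. C3, the central complement component, read 701, 858 and 879.7 after siASAP1 and 309, 347 and 351 after siCtrl. The groups were narrow and far apart (Log2 FC 1.27, SE 0.26, unadjusted p = 0.0007). C1S, the protease of the C1 complex, read 2468, 4119 and 2301 after siASAP1 and 943, 1628 and 1461 after siCtrl (Log2 FC 1.13, SE 0.32, unadjusted p = 0.00541). CFI, the protease that inactivates C3b, read 122, 105 and 29.9 after siASAP1 and 26.2, 18.8 and 23.6 after siCtrl, where the siASAP1 library of replicate 3 was close to the siCtrl libraries (Log2 FC 1.64, SE 0.59, unadjusted p = 0.0201). The median Log2 FC of the list was 0.10, with 8 of the 13 rows positive. This median turned negative, to -0.19, when the siCtrl library of replicate 3 was left out. Then 3 rows rose and 1 fell, where 6.67% of all rows were called.

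MMP1, the interstitial collagenase, read 535, 635 and 1043 after siASAP1 and 72.6, 205 and 218 after siCtrl (Log2 FC 2.25, SE 0.46, unadjusted p = 0.000721). MMP3, stromelysin 1, read 47.6, 23.7 and 136 after siASAP1 and 4.22, 10.6 and 0 after siCtrl (Log2 FC 3.80, SE 1.07, unadjusted p = 0.00564). In both, all siASAP1 libraries were above all siCtrl libraries, and the Log2 FC without the siCtrl library of replicate 3 was 2.53 and 2.82. Tenascin C (TNC), a matrix glycoprotein of wounds and tumor stroma, read 884, 576 and 1245 after siASAP1 and 294, 316 and 260.1 after siCtrl (Log2 FC 1.57, SE 0.33, unadjusted p = 0.000836). COL5A1, a chain of fibrillar collagen V, read 713, 770.2 and 711 after siASAP1 and 336, 345 and 262 after siCtrl (Log2 FC 1.23, SE 0.26, unadjusted p = 0.00103). COL6A1, of collagen VI, read 13362, 14238 and 17638 after siASAP1 and 7558, 8043 and 7230.4 after siCtrl and stopped short of the fold limit with a small error (Log2 FC 0.98, SE 0.21, unadjusted p = 0.000881). TGFBR1, the type I TGF-beta receptor, read 1127, 719 and 1139.9 after siASAP1 and 437, 399.8 and 586 after siCtrl (Log2 FC 1.06, SE 0.30, unadjusted p = 0.00569) and was the DEG among 22 rows of the TGF-beta pathway (4.55% against 2.78% of all rows). That list had 4 rows that rose and 1 that fell without the siCtrl library of replicate 3, where 6.67% of all rows were called. It did not include the activin receptor ACVR2A and TGIF2, which rose with all libraries used (Log2 FC 2.02 and 1.40). TGFBR2 gave 3646, 2911 and 4876 after siASAP1 and 1663, 1812 and 3830.5 after siCtrl (Log2 FC 0.72, unadjusted p = 0.0681). The latent TGF-beta binding protein LTBP1 gave 2281, 3184 and 2829 after siASAP1 and 3395, 5396 and 4727 after siCtrl (Log2 FC -0.69).

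Some genes of cell death and oxidant defense rose too. AIFM2, the CoQ oxidoreductase that protects lipids from peroxidation and was first named as an apoptosis-inducing factor, read 299, 187 and 344 after siASAP1 and 86.1, 101 and 114 after siCtrl (Log2 FC 1.42, SE 0.35, unadjusted p = 0.00236). BMF, a BH3-only activator of apoptosis, read 175, 68.2 and 91.7 after siASAP1 and 12.7, 35.1 and 23.6 after siCtrl (Log2 FC 2.18, SE 0.54, unadjusted p = 0.00253). In both the groups were apart. CASP2, an initiator caspase, fell, at 26.1, 37 and 28.8 after siASAP1 and 92, 61.2 and 72.9 after siCtrl (Log2 FC -1.27, SE 0.42, unadjusted p = 0.0135). Of 26 listed rows of the BCL2 family and caspases, 2 thus rose and 1 fell (11.5% against 2.78% of all rows). The list did not include CASP1, of which 1 row rose (Log2 FC 1.05) and which is described below. The NRF2 targets AKR1B1 (96.3, 63 and 85.3 after siASAP1 and 20.3, 23.7 and 37.4 after siCtrl, Log2 FC 1.58) and AKR1B10 (135, 79.2 and 106 after siASAP1 and 64.1, 35.9 and 50.2 after siCtrl, Log2 FC 1.08), both aldo-keto reductases, rose together with SLC7A11, 3 of 34 rows (8.82% against 1.34% of all rows), and 28 of the 34 were positive with a median of 0.34. Other DEGs that rose with small p were HSPB8, a small heat shock protein of chaperone-assisted autophagy (1364, 2071 and 1805 after siASAP1 and 769, 925 and 725 after siCtrl, Log2 FC 1.10), the lysosomal protease CTSD (180.2, 182 and 177 after siASAP1 and 59.9, 74.2 and 65 after siCtrl, Log2 FC 1.43), the lysosomal membrane protein CD68 (271, 251 and 321 after siASAP1 and 105, 133 and 80.8 after siCtrl, Log2 FC 1.41), the lipid phosphatase PLPP3 (1036, 1038 and 1345 after siASAP1 and 496, 599.7 and 446 after siCtrl, Log2 FC 1.15) and ACSL5, an acyl-CoA synthetase (122, 92.5 and 102 after siASAP1 and 29.5, 53 and 40.4 after siCtrl, Log2 FC 1.38). In these 5 genes no siASAP1 library was as low as any siCtrl library.

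In the lists closest to the known work of ASAP1 the counts of DEGs were near the share of all rows, 2.78%, which is under 1 row in each. Of 14 rows of Arf GAPs, ASAP1 included, 0 met the limits, and of 25 rows of Arf GTPases and their exchange factors only CYTH4, a cytohesin, rose, at 265, 139 and 279 after siASAP1 and 58.2, 102 and 155 after siCtrl with overlapping groups (Log2 FC 1.15, SE 0.45, unadjusted p = 0.0284). When the siCtrl library of replicate 3 was left out, 6.67% of all rows were called. Then 1 Arf GAP row fell, and 1 row of the Arf GTPases and exchange factors fell and 1 rose. ARFGAP2 gave 997, 1376 and 1274 after siASAP1 and 775, 707 and 1421 after siCtrl (Log2 FC 0.39) and the exchange factor PSD3 1249, 1962 and 1137 after siASAP1 and 1502, 1710.2 and 2137 after siCtrl (Log2 FC -0.33). Of 29 rows of focal adhesion and podosome proteins 0 met the limits, 22 were positive and the median was 0.29, with ACTN1 at -0.03 and ILK at 0.12. Without that library 2 of these rows rose, where 3.3% of all rows did. Coat proteins and ER-Golgi cargo genes (38 rows, median -0.05) and nuclear transport genes (36 rows, median -0.02) also held 0 DEGs, with medians of 0.06 and 0.09 under scaling by library totals. The ER-Golgi list did not include ERGIC1 and RER1, which fell (Log2 FC -1.13 and -2.08), or MIA3, which rose (Log2 FC 1.41). Of the 38 RAB rows listed only RAB4B fell (9.07, 14.5 and 5.33 after siASAP1 and 36.3, 13.9 and 68 after siCtrl, Log2 FC -1.76). RAB7B, which was not in the list, rose (Log2 FC 1.80). The mesenchymal state was measured by 9 rows of EMT transcription factors with 0 DEGs, among them SNAI2 at -0.07 and TWIST1 at -0.01 in Log2 FC, and by 24 rows of mesenchymal markers, of which only COL5A1 met the limits. EPCAM, an epithelial adhesion molecule, rose from a low level, at 61.2, 25.4 and 77.8 after siASAP1 and 22.8, 10.6 and 23.6 after siCtrl (Log2 FC 1.42, SE 0.61, unadjusted p = 0.0434), while CDH1 had no read in any library. KRT18 gave 104, 34.1 and 81 after siASAP1 and 54.8, 8.16 and 80.8 after siCtrl, and KRT8 gave 128, 80.9 and 245 after siASAP1 and 132, 106 and 377 after siCtrl. Since the control pool targets kinases, 127 rows from a list of 150 protein kinases were also counted. Of these, 3 rose (TGFBR1, DDR1 and ULK1) and 2 fell (AXL and PLK2), 3.94% against 2.78% of all rows. The list holds kinases that siRNA pools commonly target, not the content of this pool itself. Among kinases outside it, ACVR2A and DYRK2 rose (Log2 FC 2.02 and 1.43). LRRK1 and 1 row of EPHB6 fell (Log2 FC -1.13 and -1.36). With the siCtrl library of replicate 3 left out, 6 rows of the list rose and 2 fell, where 6.67% of all rows were called. The collagen receptor DDR1 read 214, 132 and 138 after siASAP1 and 59.1, 53 and 112 after siCtrl and the autophagy kinase ULK1 87.3, 40.5 and 54.4 after siASAP1 and 11.8, 27.7 and 23.6 after siCtrl. A rise after siASAP1 and a fall in siCtrl cannot be told apart for these genes.

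**Figure D4:**
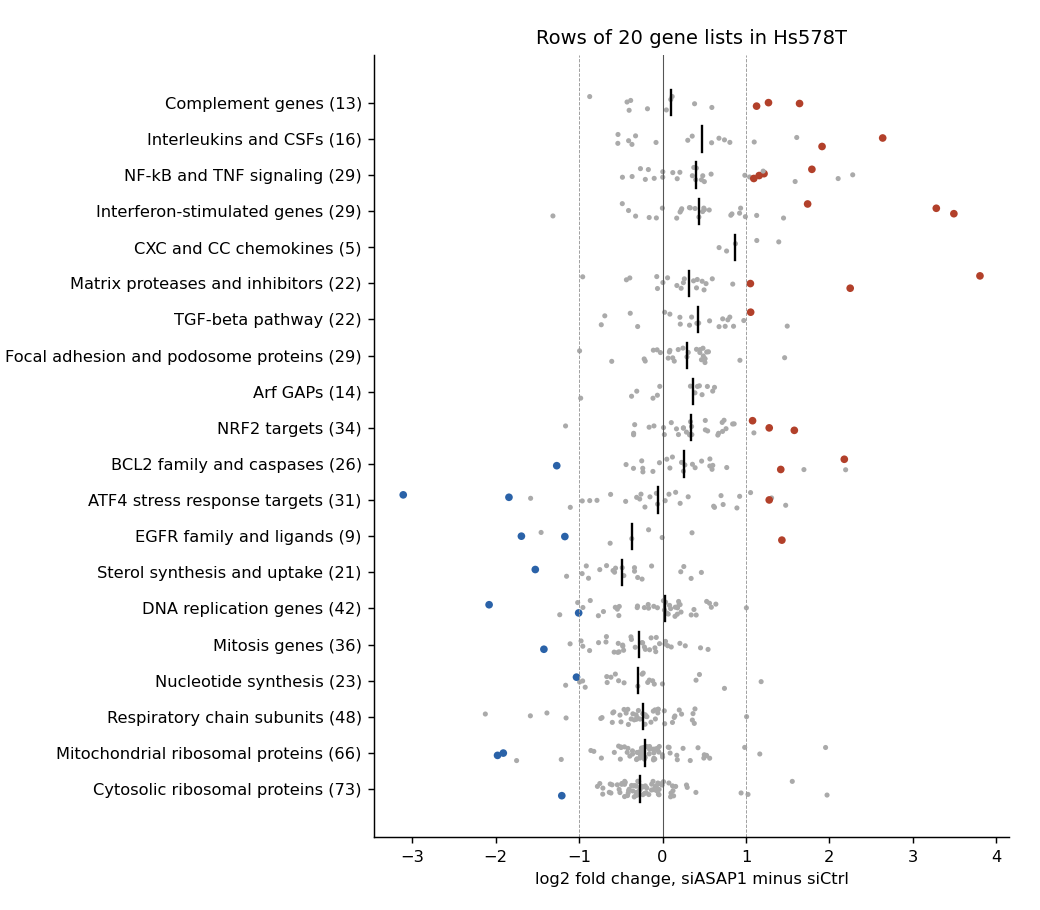
Log2 FC of siASAP1 minus siCtrl (x axis) for each tested row of 20 gene lists (y axis, number of rows in brackets), red for DEGs that rose, blue for DEGs that fell, grey for rows that met no limit, with a black line at each list's median and dashed lines at -1 and 1. Medians lie between -0.48 for sterol genes and 0.87 for the 5 chemokine rows.

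BT549 and SUM149PT received the same siRNA pools, in libraries of their own. Of the DEGs that fell in Hs578T, 113 were also tested in BT549, where 99 had a negative Log2 FC (87.6%, against 51.6% of all rows) and 33 met the limits (29.2% against 3.78%). In SUM149PT these were 93 of 108 (86.1% against 48.7%) and 29 (26.9% against 4.74%). Of the DEGs that rose, 74 of 95 were positive in BT549 (77.9% against 48.4%) and 85 of 107 in SUM149PT (79.4% against 51.3%). Of these DEGs, 20 met the limits in BT549 (21.1% against 3.13%) and 30 in SUM149PT (28% against 4.65%). For the DEGs called without the siCtrl library of replicate 3 these shares of the same sign were 92.0% and 57.9% for those that fell and 86.3% and 69.5% for those that rose, in BT549 and SUM149PT. Those that also met the limits were then 23.6% and 9.59% of the rows that fell and 20.5% and 14.1% of the rows that rose. The shares of all rows given above are for the full set of libraries. Off-target effects of the siRNA pools would be shared by the lines and cannot be told apart from effects of ASAP1. MRPS27 had a Log2 FC of -1.98 in Hs578T, -2.08 in BT549 and -1.82 in SUM149PT. SSR2 had -1.46, -1.53 and -1.50, and ANXA1 had -1.04, -1.49 and -1.77. Other genes changed sign between lines, such as PLK2 with -1.24, -0.36 and 1.19 and SLC7A11 with 1.28, -1.53 and 1.70.

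**Figure D5:**
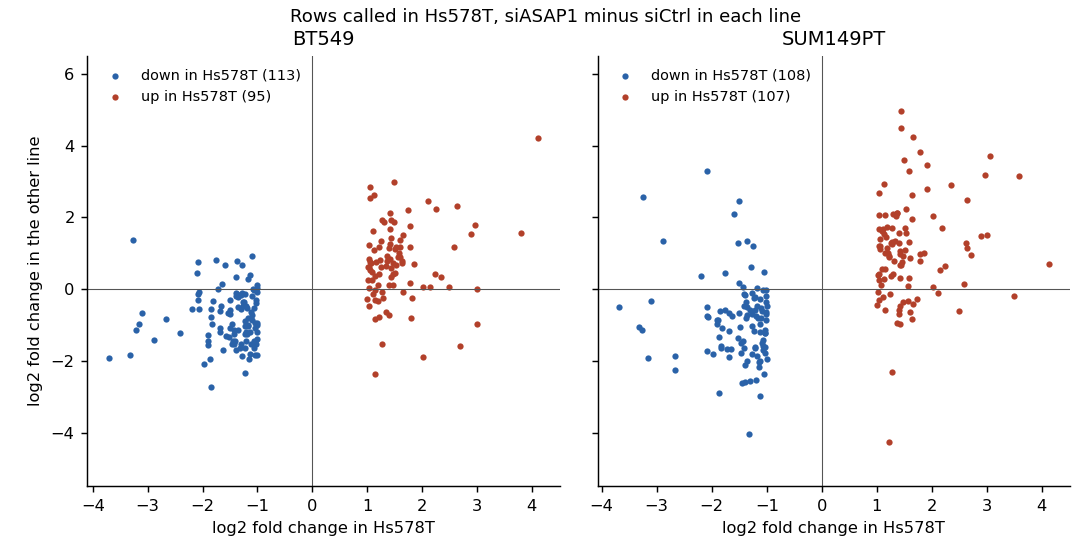
Log2 FC in Hs578T (x axis) against the Log2 FC in BT549 (left, y axis) or SUM149PT (right, y axis) for the DEGs of Hs578T that were tested there, blue for those that fell and red for those that rose in Hs578T. In BT549 99 of 113 blue points lie below 0 and 74 of 95 red points above it.

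A test of the difference itself, the Log2 FC in Hs578T minus the mean of the other lines over 10475 rows of the 18 libraries, called 0 rows at an adjusted p under 0.05 by limma. The smallest adjusted p was 0.212, and 310 rows had an unadjusted p under 0.05 (2.96%), fewer than the 5% expected with no difference, and 334 with voom weights, again with 0 adjusted calls. The genes with the smallest p were thus not shown to differ. CXCL8 had a Log2 FC of 3.10 in BT549 and 3.91 in SUM149PT against 0.68 in Hs578T, a difference of -2.83 (SE 0.67, adjusted p = 0.613). The row DUSP4_27145 of DUSP4, a MAP kinase phosphatase, had -0.21 in Hs578T against 1.42 and 0.88 (difference -1.36, adjusted p = 0.562). The other DUSP4 row tested in Hs578T, DUSP4_1990, read 35.1, 8.09 and 65.0 after siASAP1 and 28.7, 3.26 and 27.6 after siCtrl (Log2 FC 0.86, unadjusted p = 0.407). RND3, an atypical small GTPase that lacks GTP hydrolysis, had -0.50 against 0.58 and 2.93 (difference -2.26, adjusted p = 0.562). Other rows with small p were read too little in Hs578T to be tested there, such as XAF1, an interferon-induced regulator of apoptosis, at 15.9, 19.7 and 7.46 after siASAP1 and 0, 0 and 0 after siCtrl, and MAN2A2, a Golgi mannosidase, at 0, 0 and 0 after siASAP1 and 11.8, 4.9 and 8.87 after siCtrl.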

How the data were processed

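TempO-Seq libraries of Hs578T, BT549 and SUM149PT cells were grouped by the submitters' labels into siASAP1 and siCtrl, 3 libraries each. The authors assigned reads to 21111 rows (the submitters' processing notes name bcl2fastq, Bowtie and DESeq2; the genome build is not given in the sources used here), divided them by DESeq2 size factors and deposited log2 of the normalized count plus 1. Undoing the log2 gave whole reads for 100% of values (tolerance 0.01), 5.72 to 12.5 M per Hs578T library. The pseudocount of 1 understates changes of low rows.

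Hs578T libraries were fitted in R 4.3.3 with limma 3.58.1 (lmFit, then eBayes with an intensity trend) on the deposited log2 values. DEG limits followed the study: a Log2 FC over 1 in size and a p under 0.05 before adjustment. The fit was also run on simulated reads, with large changes set in rows of higher level only and no outlying library. That run does not show how the fit handles smaller changes, low rows or the siCtrl library of replicate 3. Python 3.11.15 and matplotlib 3.10.9 drew the figures. The plan named edgeR and DESeq2 tests of recovered reads, which were not run because the values are on the log2 scale; voom weights took their place. Alternatives were the replicate block, other scalings, filters and a pseudocount of 5, a fit of all 18 libraries and each library left out.

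Genes and 39 gene lists were chosen with earlier results of these data known. Named were ASAP1 and the other screen drivers, per direction the 12 DEGs with the smallest p and the same sign in the 3 same-numbered library pairs, up to 12 rows per direction with an adjusted p under 0.05 in the fit with the replicate block, up to 4 DEGs per direction and list (where there were fewer than 2, the 2 members of highest level), genes that the study's text names as changed by ASAP1 silencing, which the study chose on these libraries, and 5 rows per direction with the smallest p between lines. Not all of these are described, and a few measured genes are not reported here. Other genes were named after their values were seen.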

Additional observations from a re-analysis of the deposited data

How the results depend on the processing

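The number of DEGs in Hs578T was 137 down and 127 up. With an adjusted p under 0.05 it was 0 and 0, with library totals alone 87 and 198, with no filter on low counts 211 and 219 over 14505 rows, and with a minimum mean of 50 it was 77 and 65 over 6449 rows. When 1 library was left out, it ranged from 87 (without siASAP1 replicate 1) to 320 (without siCtrl replicate 3) down and from 66 (without siASAP1 replicate 3) to 314 (without siCtrl replicate 3) up. It was 294 down without siASAP1 replicate 2, and 71 up without siASAP1 replicate 1 and 198 up without siCtrl replicate 2; in each case the remaining libraries are assumed to vary alike, and the cause was not tested. TMM scaling (121 and 143), a pseudocount of 5 (142 and 129), 1 fit on 18 libraries (117 and 122) and, chosen after the data were seen, voom weights on recovered reads (100 and 101) stayed within 1.5 times. The fit on 18 libraries had 1 adjusted call, CASQ1 (Log2 FC 4.35, mean normalized count 12.5). The replicate numbers were not taken as pairing the libraries, since the deviations of same-numbered libraries from their group means correlated at 0.0998, 0.422 and 0.408, the first not over 0.1. Each siASAP1 library correlated best with the siCtrl library of its own number, but siCtrl replicate 1 correlated more with siASAP1 replicate 2 (0.142). With a replicate block limma gave 222 DEGs down and 213 up, and 26 and 11 adjusted calls; voom weights with the block gave 182 and 147, and 110 and 55 adjusted calls. ASAP1 was at -0.98 without and with the replicate block (unadjusted p = 0.000179). In the fit of limma on 18 libraries it was at -0.98 with an unadjusted p of 0.105, over the limit of 0.05, and it ranged from -1.20 to -0.71 when 1 library was left out, with an unadjusted p of 0.0601 without siASAP1 replicate 1. The difference between Hs578T and the other lines had 0 adjusted calls except with no filter on low counts, where 3 rows passed (smallest adjusted p = 0.00166), CASQ1, C1orf186 and NLGN1, which had mean normalized counts over the 18 libraries of 4.18, 2.89 and 2.35. With the replicate block it had 0. Of 1154 alternative values for 78 named rows with a DEG call, 949 kept the call, 205 lost it and 0 changed sign; of 1879 for 127 named rows without a call, 35 met the limits and 122 changed sign. The quasi-likelihood test of edgeR (with and without block) and the Wald test of DESeq2 were not run, because the table holds log2 values. The median SE over replicates was 0.778 at means of 10 to 50 and 0.436 or less above 50, and the part of counting error in it was not measured.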

Other observations

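The families below were chosen after the values were seen, without a test, and some of their members are described. Of the guanylate-binding proteins, GTPases of cell-autonomous immunity, GBP1 and GBP2 met the DEG limits. GBP2 read 97.5, 59 and 83.2 after siASAP1 and 32.1, 38.3 and 42.4 after siCtrl (Log2 FC 1.05). GBP3 gave 1773, 2615 and 2092 after siASAP1 and 1100.4, 1221 and 1433 after siCtrl with groups apart (Log2 FC 0.78), and GBP4 and GBP5 had overlapping groups with Log2 FCs of 0.93 and 0.66. GBP6 and GBP7 had no read. In the interleukin 1 axis, 1 row of CASP1, the protease that matures interleukin 1 beta, rose (142, 161 and 114 after siASAP1 and 41.3, 79.1 and 86.7 after siCtrl, Log2 FC 1.05), and the other row that was read gave 778, 830.3 and 588 after siASAP1 and 278, 498 and 439 after siCtrl (Log2 FC 0.88). The adaptor PYCARD had no read. IL31RA, a cytokine receptor chain, rose at 321, 207 and 363 after siASAP1 and 150.2, 119 and 159.6 after siCtrl (Log2 FC 1.02), while the antagonist IL1RN gave 14.7, 9.83 and 24.5 after siASAP1 and 15.2, 14.7 and 32.5 after siCtrl (Log2 FC -0.32).

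Among IGF-binding proteins only IGFBP3 met the limits. IGFBP5 gave 126, 48 and 192 after siASAP1 and 51.5, 23.7 and 78.8 after siCtrl in its better read row, with 1 siASAP1 library inside the siCtrl range (Log2 FC 1.18), and IGFBP6 gave 156, 133 and 231 after siASAP1 and 123, 113 and 114 after siCtrl with groups apart (Log2 FC 0.53). Of ligands that act on nerve and stroma, GDNF fell without overlap, at 97.5, 124 and 83.2 after siASAP1 and 165, 259 and 414 after siCtrl (Log2 FC -1.37). One of the BDNF rows fell, at 10.2, 11 and 8.53 after siASAP1 and 41.3, 22 and 35.5 after siCtrl (Log2 FC -1.60), and the other gave 511, 738 and 243 after siASAP1 and 746, 801 and 742 after siCtrl (Log2 FC -0.76). PDGFD fell with overlapping groups, at 40.8, 86.2 and 14.9 after siASAP1 and 86.1, 145 and 86.7 after siCtrl (Log2 FC -1.42), while FGF2 gave a Log2 FC of 0.17. Of the collagens described, COL5A1 met the limits, COL4A2 gave 53.3, 55.5 and 50.1 after siASAP1 and 32.1, 42.4 and 21.7 after siCtrl with groups apart (Log2 FC 0.76), COL12A1 gave 633, 513 and 526 after siASAP1 and 729, 747 and 1274 after siCtrl (Log2 FC -0.67) and COL1A2 and COL6A3 had Log2 FCs of 0.21 and -0.15.

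Lysosome and autophagy genes were uneven. The autophagy receptor SQSTM1 rose at 576, 394 and 962 after siASAP1 and 227, 215 and 444 after siCtrl (Log2 FC 1.11), with 1 siCtrl library inside the siASAP1 range, and CLN8 rose at 27.2, 45.7 and 83.2 after siASAP1 and 21.1, 18.8 and 9.85 after siCtrl (Log2 FC 1.52). CTSB gave 17373, 15453 and 16699.7 after siASAP1 and 11883, 15157 and 9269 after siCtrl with groups apart (Log2 FC 0.48), whereas LAMP1, LAMP2 and CTSL had Log2 FCs of 0.09, 0.08 and 0.17 with overlapping groups. LAMP2 read 8645, 13093 and 5317 after siASAP1 and 11199, 15754 and 2909 after siCtrl, lowest in both libraries numbered 3.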
